A study of Mus musculus with 16 samples.

Results

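Antiviral effectors are the proteins that carry out the interferon response inside a cell, and the 10 genes described here are Ifit1, Ifit2, Ifit3, Ifitm1, Ifitm2, Ifitm3, Bst2, Rtp4, Rsad2 and Ifi35. They were picked by name from 24485 genes measured in immortalized mouse embryonic fibroblasts, after earlier results of the same data were known, and all 10 were found by mapping the Entrez gene IDs to mouse symbols. The exp line was R26 M2rtTA/+, TetO-cre, Sdhc fl/fl, in which doxycycline switches on the Cre recombinase that can remove both copies of Sdhc, a membrane subunit of succinate dehydrogenase. The ctl line was R26 M2rtTA/+, TetO-cre, Sdhc fl/wt and keeps 1 unfloxed copy. Both lines carried the doxycycline-dependent activator and Cre, both were grown in low-glucose DMEM with serum, and both received doxycycline at 1 µg/mL, so none of the 16 libraries is free of the transgenes. Each line was sequenced as biological triplicates at day 16 and once at each of the other time points, day 0, day 5, day 9, day 12 and day 20 of doxycycline. Each genotype is represented by a single line, so effects of the line and of the genotype cannot be told apart, and p-values measure only the spread between these libraries.

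Type I interferons bind a receptor of IFNAR1 and IFNAR2, and the signal passes through JAK1 and TYK2 to a complex of transcription factors that includes IRF9 and binds the interferon-stimulated response element (ISRE) in the promoters of their targets. The targets act at different steps of a viral life cycle: IFITM proteins act at entry, IFIT proteins on viral RNA and its translation, viperin (the product of Rsad2) on nucleotides and replication, and tetherin (the product of Bst2) at release. Fibroblasts make and answer type I interferon, and many of these genes have a basal level in resting cells.

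Values are FPKM, fragments scaled by transcript length and by library size, so that levels can be set side by side. Comparisons between libraries still depend on the scaling, and fits on rescaled values are given further on. The libraries held 18121520 to 42486438 reads in genes. Sdhc itself had 36.9, 32.8 and 26.5 FPKM in the 3 day 16 exp libraries, against 50.5, 50.1 and 47.5 FPKM in the ctl libraries, and the groups did not overlap. At day 0 Sdhc had 87.8 FPKM in exp and 90.5 FPKM in ctl. It was lower at every later day in both lines. Which exons are floxed is not in the labels, so reads from the rest of the transcript may remain. Fibroblast markers were present in both lines: 11 of 12 reached 1 FPKM, with sums of 4632 to 5355 FPKM in exp libraries and 4121 to 4414 FPKM in ctl libraries, and only Fap, a fibroblast protease, was near 0. Their levels were not all alike: at day 16 limma called 3 of the 11 tested markers higher and 2 lower in exp. Thy1 averaged 8.15 FPKM in exp and 0.765 FPKM in ctl, and S100a4 averaged 660 FPKM in exp and 1018 FPKM in ctl. Of 12 immune markers 1 (Cd68) reached 1 FPKM. The immune sums were 2.67 to 6.05 FPKM in exp and 4.79 to 6.44 FPKM in ctl, and Ptprc was at 0 in all exp libraries. Of 8 endothelial markers 1 (Plvap) reached 1 FPKM, with sums of 2.50 to 3.11 FPKM in exp and 1.97 to 2.55 FPKM in ctl. At day 16 replicates 2 and 3 resembled each other (Pearson r across genes 0.995 in exp and 0.997 in ctl) more than either resembled replicate 1 (0.951 and 0.953 in exp, 0.979 and 0.981 in ctl), and member values are therefore also given for the replicate 1 pair and for replicates 2 and 3. In bulk RNA, fewer cells expressing a gene and less RNA per cell cannot be told apart.

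The members sit at 6 places in the genome. On mm9, the build of the files, Ifit2 (chr19:34625184-34650909), Ifit3 (chr19:34658021-34663221) and Ifit1 (chr19:34715361-34724499) lie in that order on the plus strand of chromosome 19, and Ifitm2 (chr7:148140736-148141882, minus strand), Ifitm1 (chr7:148153120-148155724, plus strand) and Ifitm3 (chr7:148195485-148196669, minus strand) lie together on chromosome 7. Bst2 is at chr8:74058163-74061336 on the minus strand and Rsad2 at chr12:27127618-27141317 on the minus strand. Rtp4 is at chr16:23610005-23614308 and Ifi35 at chr11:101309721-101320012, both on the plus strand. The promoter sequences of RefSeq (build GRCm38.p6, with its own coordinates) held 9 of the members, all but Rtp4, and the 250 bases before the start site were searched on both strands for the ISRE letters, GAAA and GAAA with any 2 bases between them. The letters occurred in 5 of these 9 genes and in 2.98% of all 32851 promoter windows of the same length. To show which members carried or lacked the letters, 6 windows are given, each read 5′ to 3′ on its gene's strand with ISRE matches in capitals, on either strand.
Ifit1, chr19:34640639-34640888, plus strand: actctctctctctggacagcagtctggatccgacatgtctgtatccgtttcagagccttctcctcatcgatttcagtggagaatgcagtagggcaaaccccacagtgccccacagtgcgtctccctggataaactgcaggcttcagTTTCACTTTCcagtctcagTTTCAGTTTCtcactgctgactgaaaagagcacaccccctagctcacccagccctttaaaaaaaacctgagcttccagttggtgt
Ifit3, chr19:34583279-34583528, plus strand: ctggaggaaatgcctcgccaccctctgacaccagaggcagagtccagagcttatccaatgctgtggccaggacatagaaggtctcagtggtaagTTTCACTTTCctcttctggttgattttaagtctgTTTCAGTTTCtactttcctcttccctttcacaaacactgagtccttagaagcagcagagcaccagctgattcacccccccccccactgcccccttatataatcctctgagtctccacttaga
Bst2, chr8:71537473-71537722, minus strand: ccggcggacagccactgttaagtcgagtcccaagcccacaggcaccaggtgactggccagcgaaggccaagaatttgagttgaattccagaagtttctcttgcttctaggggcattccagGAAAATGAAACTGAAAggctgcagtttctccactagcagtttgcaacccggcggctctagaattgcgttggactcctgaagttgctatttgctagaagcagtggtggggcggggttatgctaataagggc
Rsad2, chr12:26456453-26456702, minus strand: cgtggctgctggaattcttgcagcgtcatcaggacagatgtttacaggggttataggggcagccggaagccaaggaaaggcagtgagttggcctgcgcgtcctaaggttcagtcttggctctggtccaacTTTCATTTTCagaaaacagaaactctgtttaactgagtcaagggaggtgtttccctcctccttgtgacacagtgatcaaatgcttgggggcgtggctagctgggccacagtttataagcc
Ifitm2, chr7:140955962-140956211, minus strand: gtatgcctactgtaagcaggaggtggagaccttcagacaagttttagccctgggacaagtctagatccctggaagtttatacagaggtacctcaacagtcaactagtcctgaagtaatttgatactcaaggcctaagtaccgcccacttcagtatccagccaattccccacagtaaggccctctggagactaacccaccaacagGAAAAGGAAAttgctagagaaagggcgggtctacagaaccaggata
Ifitm3, chr7:141010745-141010994, minus strand: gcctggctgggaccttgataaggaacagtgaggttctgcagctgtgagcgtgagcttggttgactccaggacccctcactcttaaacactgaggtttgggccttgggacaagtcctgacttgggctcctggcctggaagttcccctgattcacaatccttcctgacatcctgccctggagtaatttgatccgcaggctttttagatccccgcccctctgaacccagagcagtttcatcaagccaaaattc
Ifit1 and Ifit3 each had a pair of matches on the opposite strand, TTTCACTTTC and TTTCAGTTTC, with identical letters in both genes, starting 104 and 85 bases before the start site of Ifit1 and 156 and 122 bases before that of Ifit3. The same pair stood in the window of Ifit3b, a close copy of Ifit3. The 2 matches of Bst2 overlapped, starting 130 and 124 bases before the start site, Rsad2 had 1 match at 120 bases and Ifitm2 had 1 at 46 bases. The windows of Ifitm3, Ifitm1, Ifit2 (both of its listed start sites) and Ifi35 held none. The letters TTCNNNGAA, the core of the gamma-activated sequence, occurred in the windows of Bst2 and Ifit2 and in 7.02% of all windows. Among the other interferon-stimulated genes listed further on, 10 of 36 with a window held the ISRE letters. A match describes letters in a window and does not show a binding site.

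The IFIT proteins are cytoplasmic RNA-binding proteins built from tetratricopeptide repeats. Ifit1, which binds RNA that lacks 2'-O methylation of its cap, had 7.61, 11.6, 17.0 and 25.9 FPKM in the exp line at days 0, 5, 9 and 12, then 25.5, 25.6 and 27.4 FPKM in the 3 day 16 libraries and 26.0 FPKM at day 20. In the ctl line it had 9.34, 15.2, 9.57 and 9.99 FPKM at days 0, 5, 9 and 12, then 8.72, 4.42 and 5.23 FPKM at day 16 and 8.91 FPKM at day 20. The exp line was the lower one at days 0 and 5, stood above every ctl library from day 9 on, and differed little between days 12 and 20. At day 16 Ifit1 averaged 26.2 ± 1.09 FPKM in exp and 6.12 ± 2.29 FPKM in ctl (SD, n = 3 each), 4.28-fold, or 1.98 ± 0.21 (SE) on the log2(FPKM + 1) scale. The difference was 1.44 in the replicate 1 pair and 2.24 over replicates 2 and 3, and the spread came mostly from the ctl line.

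Ifit3, a binding partner of IFIT1 in human cells, had the lowest starting point relative to ctl. Its exp values were 4.92, 8.06, 13.1 and 18.1 FPKM at days 0, 5, 9 and 12, then 17.8, 24.9 and 23.9 FPKM at day 16 and 16.8 FPKM at day 20. Its ctl values were 9.76, 13.8, 8.81 and 10.2 FPKM over the same days, then 9.23, 7.01 and 7.45 FPKM at day 16 and 10.5 FPKM at day 20. The exp level was thus 0.504 of the ctl level at day 0, with 1 library per line, and lay above every ctl library from day 12 on. At day 16 it averaged 22.2 ± 3.84 FPKM in exp and 7.90 ± 1.18 FPKM in ctl (SD, n = 3 each), a log2 difference of 1.38 ± 0.16, which was 0.88 in the replicate 1 pair and 1.63 over replicates 2 and 3. Its neighbour copy Ifit3b followed the same course, with 2.14 FPKM at day 0 and 8.34 FPKM at day 20 in exp, against 4.31 and 4.04 FPKM in ctl. At day 16 Ifit3b averaged 10.2 FPKM in exp and 3.21 FPKM in ctl, and its log2 difference of 1.40 ± 0.17 passed the limma test (adjusted p = 0.00847, Benjamini-Hochberg over all genes, 3 of 3 exp libraries above the ctl ones). It missed the threshold without ctl replicate 2 or ctl replicate 3, with an adjusted p of at most 0.0532. How reads shared by Ifit3 and Ifit3b were assigned is not given in the sources used here, so the split between the 2 copies is uncertain.

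Ifit2, which in mice restricts viruses of the nervous system, differed less between the lines. It had 13.9, 18.4, 17.2 and 21.3 FPKM in exp at days 0, 5, 9 and 12, then 16.4, 24.1 and 23.3 FPKM at day 16 and 17.5 FPKM at day 20. The ctl line had 14.5, 16.1, 14.4 and 14.4 FPKM, then 14.5, 12.8 and 13.0 FPKM at day 16 and 14.9 FPKM at day 20. Every exp library from day 5 on was above every ctl library, but exp replicate 1 of day 16 exceeded the highest ctl library by less than the spread of either line. The day 16 means were 21.3 ± 4.24 FPKM in exp and 13.4 ± 0.951 FPKM in ctl (SD, n = 3 each), a log2 difference of 0.61 ± 0.15 that was 0.17 in the replicate 1 pair and 0.83 over replicates 2 and 3. The other IFIT copies were rare: at day 16 Ifit1bl1 averaged 0.740 FPKM in exp and 0.216 FPKM in ctl, and Ifit1bl2 averaged 0.292 FPKM in exp and 0.0448 FPKM in ctl. The window of Ifit1bl2 overlaps that of Ifit1 on the other strand, and both copies were below the mean of 1 FPKM needed to enter the fit.

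Rsad2 encodes viperin, a radical SAM enzyme that turns CTP into a chain-terminating nucleotide, and was the rarest member. In exp it had 0.159, 0.262, 0.140 and 0.270 FPKM at days 0, 5, 9 and 12, then 1.50, 0.740 and 1.02 FPKM at day 16 and 1.31 FPKM at day 20. In ctl it had 0.313, 0.786, 0.444 and 0.179 FPKM, then 0.121, 0.112 and 0.143 FPKM at day 16 and 0.274 FPKM at day 20. The exp line was below ctl through day 9, close to it at day 12 and above every ctl library of the same day at days 16 and 20. These levels rest on 12 to 169 reads per library. The day 16 means of 1.08 ± 0.383 FPKM in exp and 0.125 ± 0.0161 FPKM in ctl (SD, n = 3 each) differ 8.64-fold, while the log2(FPKM + 1) difference was only 0.87 ± 0.14, since the added 1 understates the change of a rare transcript. It was 1.15 in the replicate 1 pair and 0.73 over replicates 2 and 3. Cmpk2, the neighbouring kinase gene whose product supplies CTP, did not share this separation: it averaged 0.874 ± 0.0510 FPKM in exp and 0.880 ± 0.230 FPKM in ctl at day 16 (SD, n = 3 each). At day 0 Cmpk2 had 0.205 FPKM in exp and 1.30 FPKM in ctl, and at day 20 it had 0.701 and 1.14 FPKM, so it rose in exp from a lower start. Its levels rest on 13 to 159 reads per library, with 13 in exp at day 0. In limma fits without the 1 FPKM minimum its log2 slope in exp over 20 days was 0.72 ± 0.17 (adjusted p = 0.0437). The slope of its exp minus ctl difference was 1.11 ± 0.28 (adjusted p = 0.194).

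**Figure D1:**
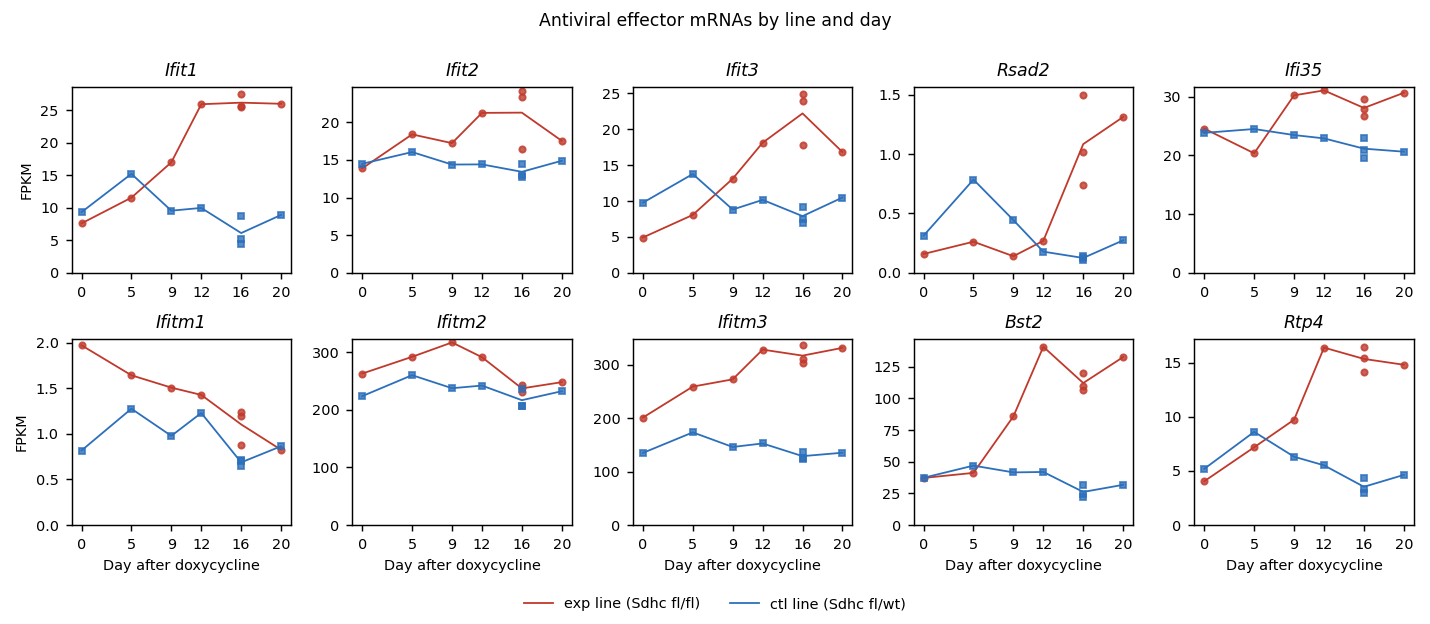
FPKM of each of the 10 members (vertical axes, linear, from 0) against the day of doxycycline (horizontal axes), with exp libraries as red circles, ctl libraries as blue squares and lines through the day means. Ifit1, Bst2 and Rtp4 in exp stay above every ctl library from day 9, Ifit3 crosses between days 5 and 9, Rsad2 separates at day 16, and Ifitm1 and Ifitm2 do not follow that course.

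IFITM proteins are small membrane proteins that hinder the fusion of viral and cellular membranes, Ifitm3 mainly in endosomes. Ifitm3 was the most abundant member in exp at day 16 and differed between the lines from the start. It had 201, 259, 273 and 328 FPKM in exp at days 0, 5, 9 and 12, then 337, 303 and 311 FPKM at day 16 and 332 FPKM at day 20. The ctl line had 135, 174, 146 and 153 FPKM, then 137, 126 and 124 FPKM at day 16 and 135 FPKM at day 20. All 8 exp libraries lay above all 8 ctl libraries, the day 0 pair included, where exp had 1.49 times the ctl level. At day 16 it averaged 317 ± 17.9 FPKM in exp and 129 ± 7.03 FPKM in ctl (SD, n = 3 each), a log2 difference of 1.29 ± 0.07. That difference was the same in the replicate 1 pair (1.29) and over replicates 2 and 3 (1.29), unlike those of Ifit1 and Ifit3.

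Ifitm2, a close relative of Ifitm3 in the same cluster, had a similar level but no such separation. Its exp values were 263, 292, 317 and 291 FPKM at days 0, 5, 9 and 12, then 238, 243 and 231 FPKM at day 16 and 248 FPKM at day 20. Its ctl values were 224, 260, 238 and 242 FPKM, then 237, 206 and 207 FPKM at day 16 and 232 FPKM at day 20. The lines overlapped at day 16, where the means were 237 ± 6.18 FPKM in exp and 217 ± 17.4 FPKM in ctl (SD, n = 3 each) and the log2 difference was 0.13 ± 0.08. It was 0.01 in the replicate 1 pair and 0.20 over replicates 2 and 3. The largest exp value of Ifitm2 was at day 9, and its day 20 level was 0.943 of the day 0 level, against 1.65 for Ifitm3. The ISRE letters are in the window of Ifitm2 and not in that of Ifitm3.

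Ifitm1, the surface member of the family, rested on only 18 to 42 reads per library. In exp it had 1.97, 1.64, 1.51 and 1.43 FPKM at days 0, 5, 9 and 12, then 1.24, 0.879 and 1.20 FPKM at day 16 and 0.825 FPKM at day 20. In ctl it had 0.818, 1.28, 0.978 and 1.23 FPKM, then 0.716, 0.701 and 0.645 FPKM at day 16 and 0.864 FPKM at day 20. It was the only member whose exp level was highest at day 0, and its exp level at day 20 was 0.419 of that value. At day 16 it averaged 1.10 ± 0.196 FPKM in exp and 0.687 ± 0.0372 FPKM in ctl (SD, n = 3 each), with a log2 difference of 0.31 ± 0.09, which was 0.38 in the replicate 1 pair and 0.28 over replicates 2 and 3. Other family genes stayed rare at day 16: Ifitm5, expressed in bone, averaged 0.969 FPKM in exp and 1.06 FPKM in ctl, and Ifitm6 averaged 0.315 FPKM in exp and 0.227 FPKM in ctl. Ifitm10 averaged 1.07 FPKM in exp and 0.492 FPKM in ctl, and its exp libraries were above all ctl libraries at every day, day 0 included (0.823 FPKM in exp and 0.570 FPKM in ctl).

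Bst2 encodes tetherin, which holds budding virions on the cell surface, and was among the members with the largest differences at day 16. In exp it had 37.2, 41.2, 85.8 and 141 FPKM at days 0, 5, 9 and 12, then 120, 107 and 110 FPKM at day 16 and 133 FPKM at day 20. In ctl it had 37.3, 46.9, 41.6 and 41.9 FPKM, then 31.8, 22.5 and 24.3 FPKM at day 16 and 31.8 FPKM at day 20. The lines started at the same level, stayed close at day 5 and were apart from day 9 on, with the exp maximum at day 12. Its day 16 level averaged 112 ± 6.80 FPKM in exp and 26.2 ± 4.92 FPKM in ctl (SD, n = 3 each), which is 4.28-fold, or 2.07 ± 0.13 on the log2 scale. The difference was 1.88 in the replicate 1 pair and 2.17 over replicates 2 and 3.

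Rtp4, a receptor transporter protein that chaperones some G protein-coupled receptors and can inhibit flaviviruses, had 4.05, 7.19, 9.74 and 16.4 FPKM in exp at days 0, 5, 9 and 12. Its exp values were 14.1, 15.5 and 16.5 FPKM at day 16 and 14.8 FPKM at day 20. Its ctl values were 5.20, 8.62, 6.32 and 5.52 FPKM, then 4.33, 2.96 and 3.32 FPKM at day 16 and 4.64 FPKM at day 20. The exp line was the lower one at days 0 and 5 and was above every ctl library from day 9 on. The day 16 means were 15.4 ± 1.20 FPKM in exp and 3.54 ± 0.712 FPKM in ctl (SD, n = 3 each), 4.34-fold and 1.86 ± 0.13 on the log2 scale, with 1.50 in the replicate 1 pair and 2.04 over replicates 2 and 3. Of its family, Rtp1 was listed at 0 in all 16 libraries and Rtp2 and Rtp3 were at or near 0.

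Ifi35, a leucine zipper protein that pairs with NMI, had a high basal level and a small difference. It had 24.6, 20.4, 30.2 and 31.1 FPKM in exp at days 0, 5, 9 and 12, then 29.7, 26.7 and 27.9 FPKM at day 16 and 30.7 FPKM at day 20. In ctl it had 23.8, 24.5, 23.5 and 22.9 FPKM, then 23.0, 19.5 and 20.9 FPKM at day 16 and 20.6 FPKM at day 20. From day 9 on all exp libraries were above all ctl libraries, by a margin smaller than for Bst2 or Ifit1. The day 16 means were 28.1 ± 1.47 FPKM in exp and 21.2 ± 1.76 FPKM in ctl (SD, n = 3 each), a log2 difference of 0.39 ± 0.08, which was 0.35 in the replicate 1 pair and 0.42 over replicates 2 and 3. Its partner Nmi averaged 4.74 ± 0.753 FPKM in exp and 3.36 ± 0.241 FPKM in ctl, a log2 difference of 0.39 ± 0.12 that did not pass the limma test (adjusted p = 0.122). Vat1 ends 47 bases from Ifi35 on the other strand and had a log2 difference of -0.75 ± 0.16 (limma, adjusted p = 0.0503). Strand use in counting is not stated, and whether reads were shared by these genes was not tested.

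**Figure D2:**
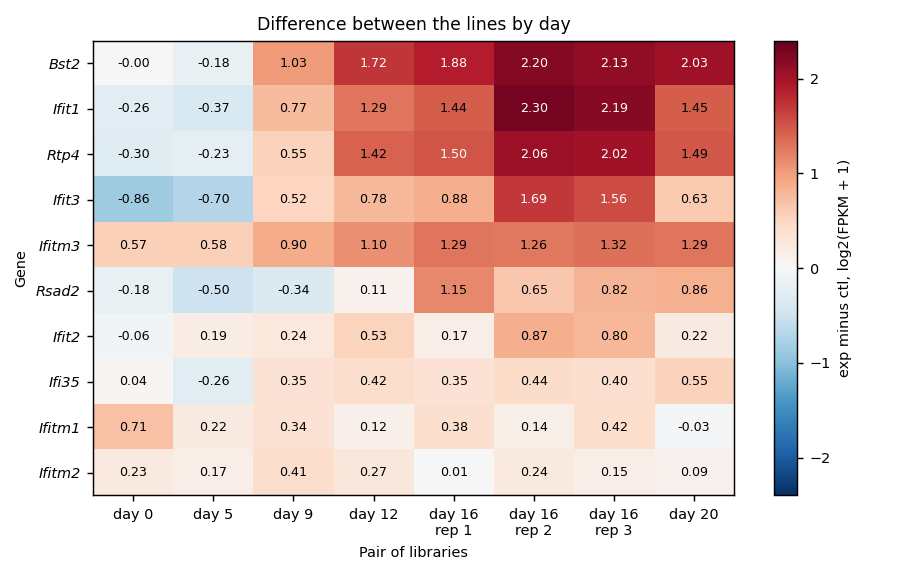
Difference of exp minus ctl on the log2(FPKM + 1) scale for each member (down the page) in each pair of libraries of the same day and replicate number (across), red for higher in exp and blue for lower. Bst2 is at -0.00 at day 0 and 2.03 at day 20, and Ifit3 is at -0.86 at day 0 and 0.63 at day 20.

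Over the 6 day 16 libraries, all 3 exp libraries were above all 3 ctl libraries for 9 of the 10 members, the exception being Ifitm2. This held for 7 of the 8 members in the fit and for 15.5% of the 12533 genes tested. Of those 8 members limma called 6 higher in exp (Ifit1, Ifit3, Ifitm3, Bst2, Rtp4 and Ifi35), where 3.1% of all tested genes were called higher. The members were chosen with this contrast known, so the count describes them and nothing is read from it. Ifi35 lost its call without exp replicate 1, 2 or 3, without ctl replicate 2 or 3, with no filter, after median-of-ratios scaling or without the trend and robust settings of limma, and Ifit2 was called without exp replicate 1 (log2 difference 0.78). Over replicates 2 and 3 alone all 8 were called, Ifit2 (0.83) and Ifitm2 (0.20) included. With no filter Rsad2 was called (0.87). Rsad2 and Ifitm1 had a mean below 1 FPKM over these 6 libraries and were not in the fit.

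The order of the levels differed between the lines. In exp at day 16 Ifitm3 (317 FPKM) stood above Ifitm2 (237 FPKM) and Bst2 (112 FPKM), followed by Ifi35, Ifit1, Ifit3, Ifit2 and Rtp4 between 28.1 and 15.4 FPKM. Within that middle group the ranges of Ifi35 and Ifit1, of Ifit3 and Ifit2 and of Ifit2 and Rtp4 overlapped. Ifitm1 and Rsad2 came last in exp, and their ranges overlapped too. In ctl Ifitm2 (217 FPKM) came first and Ifitm3 (129 FPKM) second, and Ifit1 stood below Ifi35, Ifit2 and Ifit3. Only the neighbours Bst2 and Ifi35 and the neighbours Ifit3 and Ifit1 overlapped in the ctl order.

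Across the time course the members split by how the line difference changed. Its slope, the change of the exp minus ctl log2 difference over 20 days in a fit with day as a factor, was 2.68 ± 0.37 for Bst2, 2.61 ± 0.50 for Ifit1, 2.54 ± 0.38 for Rtp4 and 2.32 ± 0.48 for Ifit3 (SE). It was 0.91 ± 0.16 for Ifitm3, 0.63 ± 0.19 for Ifi35 and 0.54 ± 0.28 for Ifit2, and it was negative for Ifitm2 (-0.16 ± 0.16) and Ifitm1 (-0.44 ± 0.24). Among the 9 members in this fit limma called 2, Bst2 and Rtp4, where 0.183% of 12559 genes were called upward, and again nothing is read from it. Neither call held without exp replicate 2, exp replicate 3 or ctl replicate 3 of day 16, without day 0, day 9 or day 16, or with the day 16 libraries averaged, and Rtp4 also lost its call without ctl replicate 1 or 2, day 5 or day 12, or with no filter. With the replicate number as a block Rtp4 lost its call and Ifitm3 gained one. Ifitm3 was also called after median-of-ratios (0.98) or quantile (1.03) scaling, without the trend and robust settings, and with voom (0.92). Without day 20 the slopes of Ifit1 (3.20) and Ifit3 (3.03) were called as well.

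The exp line carried most of this change. Its own slope over 20 days was 1.98 ± 0.34 for Bst2, 1.97 ± 0.32 for Ifit3, 1.82 ± 0.37 for Ifit1, 1.78 ± 0.33 for Rtp4 and 0.69 ± 0.15 for Ifitm3 (log2, SE), and it was -0.67 ± 0.18 for Ifitm1. Those 5 upward slopes were called beside 1.36% of all genes, and that of Ifitm1 was called downward beside 3.59%. The 5 upward calls were lost without day 0 or without day 16, and that of Ifitm3 also without exp replicate 1. The downward call of Ifitm1 was lost with either other pseudocount, with either rescaling and without any 1 of the 6 day 16 libraries. Rescaling by the median of ratios moved the median exp slope of all genes to 0.02 (-0.09 as deposited) and the calls to 263 up and 157 down (171 up and 451 down as deposited), and the 5 upward calls of the members held under it. In ctl the slopes of all 9 members in the fit were negative, between -0.12 and -0.79, and no gene of 12559 was called there (limma, 203 at an unadjusted p under 0.05, 0 also with limma voom on reads recovered from the FPKM).

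The day 5 ctl library was the highest of the 8 ctl libraries for 10 of 10 members, which was the case for 22.2% of all tested genes. The day 5 level over the day 0 level in ctl was 2.51 for Rsad2, 1.66 for Rtp4, 1.63 for Ifit1, 1.56 for Ifitm1, 1.41 for Ifit3, 1.28 for Ifitm3, 1.26 for Bst2, 1.16 for Ifitm2, 1.11 for Ifit2 and 1.03 for Ifi35, each from 1 library per day. Ifit1, Ifit3, Rtp4 and Rsad2 were lower in exp than in ctl at both day 0 and day 5. Bst2 was too, though its day 0 levels were nearly equal (37.2 FPKM in exp and 37.3 FPKM in ctl). Over days 12 to 20, with 5 libraries per line, every exp library was above every ctl library of these days for 7 of the 10 members. Rsad2 at day 12, Ifitm1 and Ifitm2 were the exceptions, and the share over all tested genes was 9.96%.

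Within a line the members moved with one another from library to library, differently in each line. In exp, over 8 libraries that share the day order, Ifit1 correlated with Rtp4 at r = 0.99, with Ifit3 at 0.97 and with Bst2 and Ifitm3 at 0.96 (Pearson, log2 scale, a description). It correlated with Ifi35 at 0.69 and with Ifit2 at 0.68, and negatively with Ifitm2 (-0.42) and Ifitm1 (-0.82). In ctl all of these were positive, between 0.82 for Ifitm1 and 0.97 for Ifit2. Ifitm2 and Ifitm3 thus stood at -0.33 in exp and at 0.94 in ctl, and Ifitm1 and Ifitm3 at -0.77 in exp and at 0.94 in ctl. Among the other genes with the profile most like the mean of the 9 members with at least 1 FPKM over the 16 libraries were Irf9 (r = 0.976), Isg15 (0.969), Lgals3bp (0.957) and Irf7 (0.948). These had r of 0.920 to 0.935 over the 8 exp libraries alone and 0.946 to 0.983 over the 8 ctl libraries alone.

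**Figure D3:**
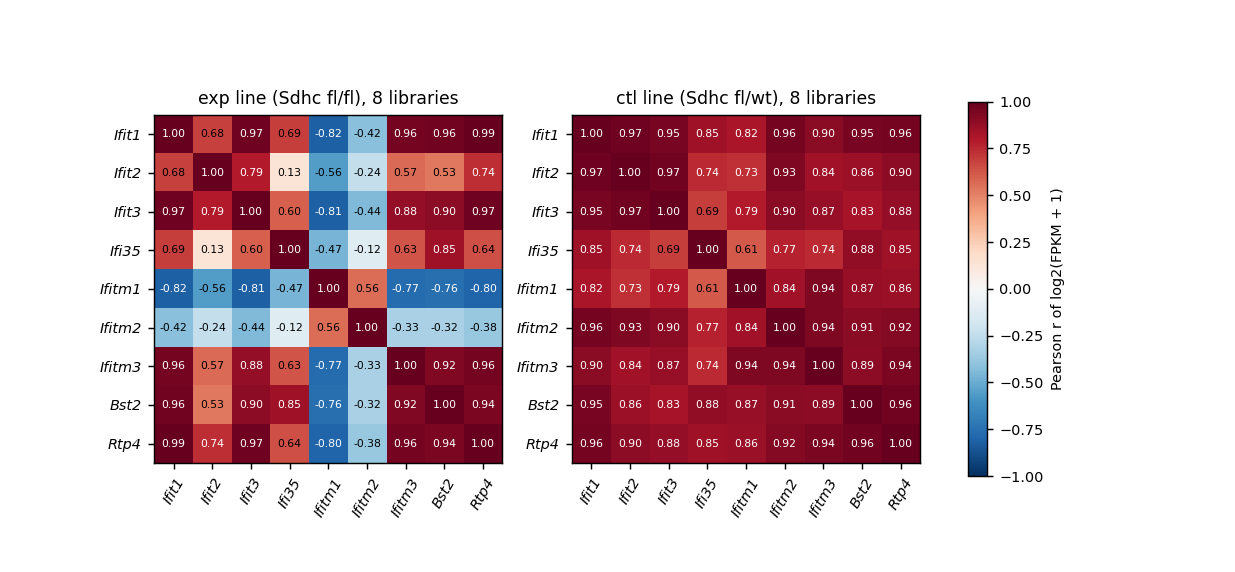
Pearson r of log2(FPKM + 1) between pairs of the 9 members with a mean of at least 1 FPKM, over the 8 exp libraries (left) and the 8 ctl libraries (right), red for positive and blue for negative. In exp Ifitm1 and Ifitm2 are negative with the rest, for example -0.82 between Ifitm1 and Ifit1, and in ctl every pair is positive.

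The wider interferon-stimulated programme was measured with a list of 48 other genes, drawn up with results of these data known. Of the 41 tested at day 16, 39 had a positive difference, and limma called 30 higher in exp and 0 lower. Among all tested genes 3.1% were called higher. The median log2 difference of the 41 was 1.03, beside -0.01 over all genes. The number called higher was 16 without exp replicate 2, ctl replicate 2 or ctl replicate 3 and 17 without exp replicate 3. The 4 with the smallest p were Isg15, a ubiquitin-like modifier (2.57 ± 0.09, adjusted p = 0.000124), Usp18, which removes it (2.08 ± 0.10, adjusted p = 0.000361), the RNA sensor Ifih1 (1.49 ± 0.08, adjusted p = 0.000516) and Oas1a, of the oligoadenylate synthetase family (1.83 ± 0.10, adjusted p = 0.000516). All 3 exp libraries were above the ctl ones for each. Over the time course 22 of 40 had a called upward slope in exp, beside 1.36% of all genes. In ctl 0 of 40 had a called slope (limma, 15 at an unadjusted p under 0.05, 0 with voom). The slope difference was called for 12 of 40, beside 0.183% of all genes called upward. It was called for 2 without exp replicate 2, and for none without day 16. Because the list was drawn up with results known, these counts describe it and nothing is read from them.

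Upstream, the ligands were rare and no receptor passed the day 16 test. Of 18 interferon genes 10 were listed at 0 in all 16 libraries, and Ifnb1, interferon beta, was above 0 in 2 of 8 exp libraries and 3 of 8 ctl libraries with at most 2 reads. Ifnz, interferon zeta, ranged over 0.290 to 0.698 FPKM in exp and 0.322 to 0.627 FPKM in ctl, and no other interferon exceeded 0.159 FPKM. Ifnar1 averaged 22.5 FPKM in exp and 27.2 FPKM in ctl at day 16, and Ifnar2 averaged 13.1 FPKM in exp and 12.4 FPKM in ctl. For Ifnar1 all 3 day 16 exp libraries lay below all 3 ctl ones (log2 difference -0.26 ± 0.09, limma, adjusted p = 0.170). It was lower in exp at the other days as well, with a log2 difference of -0.45 at day 0 and -0.29 at day 20. Of 13 tested receptor and signalling genes limma called 0 at day 16 (1 at an unadjusted p under 0.05, 0 with voom), with a median difference of 0.05. Tyk2 and Socs3, a kinase and a feedback inhibitor of the pathway, had called downward slopes in exp (limma, 2 of 13 tested, 2 with voom). Over all genes 3.59% were called downward there. That share depends on the scaling, with 451 downward calls as deposited and 157 after median-of-ratios scaling. A list leaning to interferon gamma had 4 tested genes and 0 called at day 16 (limma, 0 at an unadjusted p under 0.05, 0 with voom). The slope difference was positive for all 4, with a median of 0.57 beside -0.06 over all genes. It was called for 0 (2 at an unadjusted p under 0.05, 0 with voom). Their slope in exp was positive for 3 and called for 0 (limma, 2 at an unadjusted p under 0.05, 1 with voom).

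The nearest expressed genes on both sides of the members or their clusters lay 47 bases (Vat1) to 2174.4 kb (Rps7, beside Rsad2) away. Of these 12, limma called 0 at day 16 (1 at an unadjusted p under 0.05, 1 with voom) and 0 for the slope difference (4 at an unadjusted p under 0.05, 0 with voom). Lipa, a lysosomal lipase gene beside the Ifit cluster, differed by 0.01 ± 0.07 at day 16. Plvap and Mvb12a, on the sides of Bst2, differed by 0.12 ± 0.14 and by -0.06 ± 0.16. Vat1, given with Ifi35, had the largest difference of the 12.

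A marker set of another cell type also varied between libraries, and some of its markers differed between the lines at day 0 already. Of 10 epithelial and mesothelial markers, 9 reached 1 FPKM, and their sum was 306, 277, 147 and 255 FPKM in exp at days 0, 5, 9 and 12, then 974, 78.5 and 91.5 FPKM at day 16 and 852 FPKM at day 20. In ctl the sum stayed between 99.1 and 128 FPKM, most of it from Msln, mesothelin. Upk3b, a mesothelial membrane gene, had 455, 22.9 and 28.0 FPKM in the 3 day 16 exp libraries, against 0.211, 0.220 and 0.242 FPKM in the ctl ones, so this marker was higher in exp in replicates 2 and 3 as well. At day 0 Upk3b had 84.8 FPKM in exp and 0.552 FPKM in ctl. Krt14, Krt18 and Wt1 had 40.8, 17.7 and 9.51 FPKM in exp that day, against 0.181, 0.201 and 0.0202 FPKM in ctl. For these markers every exp library was above every ctl library. Msln had 78.3 FPKM in exp and 84.8 FPKM in ctl at day 0. At day 16, 7 of the 9 tested markers had a positive difference and 2 a negative one. Over the 3 day 16 exp libraries Ifitm3 had 337, 303 and 311 FPKM and Bst2 120, 107 and 110 FPKM. Among these 3 libraries, the one with the high markers had the lowest Ifit1, Ifit2, Ifit3 and Rtp4. It had the highest Ifitm1, Ifitm3, Bst2, Rsad2 and Ifi35, and Ifitm2 lay between. The part of these markers in those values was not tested.

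**Figure D4:**
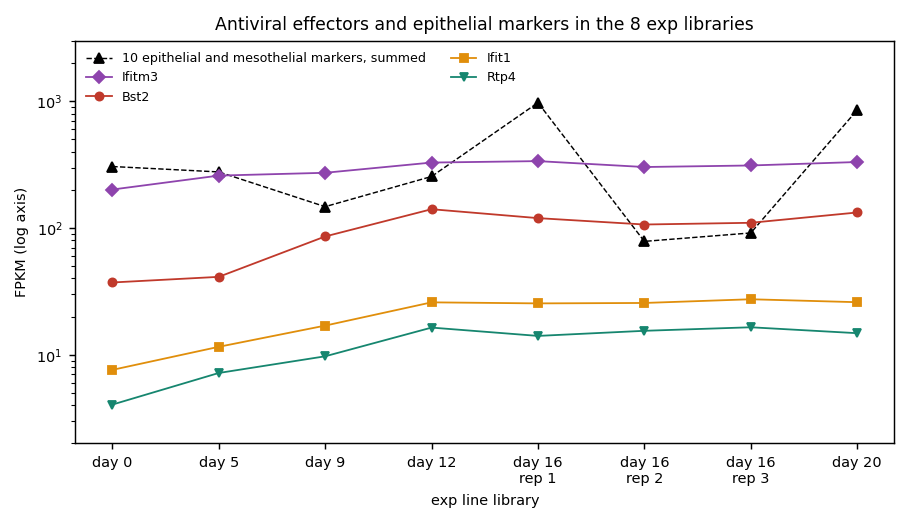
FPKM on a log axis in the 8 exp libraries in order of day, for the sum of 10 epithelial and mesothelial markers (black, dashed) and for Ifitm3, Bst2, Ifit1 and Rtp4. The markers reach 974 FPKM in day 16 replicate 1 and 852 FPKM at day 20 and are at 78.5 and 91.5 FPKM in replicates 2 and 3, while Ifit1 lies between 25.5 and 27.4 FPKM in all 3 day 16 libraries.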

How the data were processed

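RNA-seq of total RNA from the 16 libraries was made with a TruSeq v2 mRNA kit, per the labels' protocols. The authors deposited 1 table of FPKM per library for 24485 Entrez gene IDs, of which 24416 were matched to a mouse symbol through the RefSeq gene table. The submitters' processing notes name mm9 and Bowtie2 2.2.3. Neither the counting program nor its use of strand is given in these sources. FPKM are not counts, so values were analysed as log2(FPKM + 1) with limma 3.58.1 (trend, robust, statmod 1.5.0) in R 4.3.3, on genes with a mean of at least 1 FPKM over the libraries of the fit, with Benjamini-Hochberg adjustment and a threshold of 0.05. Tests were two-sided. The day 16 difference used the 6 day 16 libraries, and slopes used all 16 with a change per 20 days. As an alternative, whole reads were recovered from the steps of the FPKM values of 18966 genes, with the smallest step taken as 1 read. The search accepted only steps that put every value of a gene within 0.02 of a whole read. That 100.0% of the nonzero values met this limit was therefore set by the search. The largest distance from a whole read was 0.00017. On the recovered reads limma voom was run. It called 813 genes at day 16. These reads give the depths and read numbers; they cover counting error only.

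Replicate numbers at day 16 were taken from the titles. Deviations from the line means correlated between same-numbered libraries of the lines (r = 0.381, 0.272 and 0.333), and differences by pair set same-numbered libraries side by side. Replicates 2 and 3 also correlated across numbers (0.398 for exp 3 with ctl 2, 0.209 for exp 2 with ctl 3), so the correlations mainly set replicate 1 apart. The main fits did not pair libraries by number, and a fit with the number as a block was run as an alternative. It called 1023 genes at day 16. The scripts were tested on simulated data. Promoter letters came from RefSeq (GRCm38.p6) and gene positions from GENCODE annotation of mm9, and no coordinate was converted between builds. The members and the gene lists were chosen with earlier results of these data known, so no p-value is given for a member. All 10 members are named. Other genes were named by rule: paralogs by level, 4 interferon-stimulated genes by day 16 p, the nearest expressed neighbours by position and 5 genes by likeness, of which 1 is not reported here. The other alternatives were pseudocounts of 0.1 and 0.5, no filter, a mean of at least 5 FPKM, median-of-ratios and quantile scaling, and leaving out each day 16 library or each day.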

Additional observations from a re-analysis of the deposited data

Results flagged for a closer look

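Among the members and the interferon-stimulated genes named by day 16 p, the slope over the days differed between the lines in 6 genes. The test was that of the difference itself (the line-by-day term of limma, with day as a factor, exp slope minus ctl slope per 20 days on the log2 scale). Among the members these were Bst2 (2.68) and Rtp4 (2.54), whose choice rests on results of these data. Among the other interferon-stimulated genes they were Isg15 (2.93, adjusted p = 0.0195), Usp18 (3.16, adjusted p = 0.00937), Ifih1 (1.70, adjusted p = 0.0301) and Oas1a (2.34, adjusted p = 0.00937). These were named by their day 16 p, from libraries that also enter the slope. Irf9 (1.29, adjusted p = 0.0395) and Lgals3bp (2.63, adjusted p = 0.0195), named by likeness to the members over the same libraries, were called by limma as well. Over the alternatives the adjusted p of the slope difference ranged over 0.00644 to 0.209 for Isg15, 0.00454 to 0.164 for Usp18, 0.0165 to 0.239 for Ifih1 and 0.00454 to 0.164 for Oas1a. With the replicate number as a block the calls of Ifih1 and Rtp4 were lost, and with the day 16 libraries averaged none of the 6 was called. The call of Ifih1 held in 10 of 23 alternatives. Without day 16, which left 1 library per line and day, none of the 6 passed the threshold.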

How the results depend on the processing

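No called difference or slope of a named gene changed sign among the alternatives run; median-of-ratios scaling turned the sign of the median over all genes for the exp slope (0.02, against -0.09 as deposited) and for the slope difference (0.01, against -0.06). Day 16 calls over all genes (765) were 493 with a mean of at least 5 FPKM, 4326 in replicates 2 and 3 alone and 197 to 1599 when 1 day 16 library was left out (237 without exp replicate 2, 242 without exp replicate 3, 218 without ctl replicate 2). The other interferon-stimulated genes called (30) were 16 with a mean of at least 5 FPKM and 16 to 31 when 1 library was left out. The members called numbered 5 to 8 under all of them. For the slope difference, genes called (26) were 49 with quantile scaling, 2 to 35 when 1 library was left out, and 1, 8, 14, 12 and 0 without day 0, 5, 9, 12 and 16. Members called (2) were 1 with no filter, 0 to 2 when 1 library was left out, and 0, 1, 0, 1, 0 and 4 without day 0, 5, 9, 12, 16 and 20. Other interferon-stimulated genes called (12) were 2 to 12 when 1 library was left out and 1, 5, 7, 7 and 0 without day 0, 5, 9, 12 and 16. Without replicates 2 and 3 of day 16 these 3 counts were 2, 0 and 0, and with day 16 averaged they were 0, 0 and 0. For the exp slope, genes called (622) were 249 to 466 when 1 library was left out and 9, 1381, 371 and 72 without day 0, 5, 12 and 16. Members called upward (5) were 0 without day 0 and 0 without day 16. Interferon-stimulated genes called (22) were 12 with a mean of at least 5 FPKM, 2 without day 0 and 8 without day 16. For the ctl slope, genes called (0) were 0 to 2 when 1 library was left out. Fewer libraries or genes enter several of these fits; beyond that the cause was not tested. With the replicate block, genes called were 1023 at day 16 and 37 for the slope difference, and the members called stayed at 6 and 2 in number. At the 5 days with 1 library per line, no difference has a replicate check, and Rsad2 (12 to 169 reads per library) and Ifitm1 (18 to 42 reads) are limited by depth.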

Other observations

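A few of the 48 other interferon-stimulated genes stood out at day 16, by a negative difference or by a large one without a call. Herc6, an ISG15 ligase in mice, and Gbp2, an interferon-inducible GTPase, were the 2 tested genes with a negative day 16 difference, -0.05 ± 0.14 (adjusted p = 0.884) and -0.41 ± 0.24 (adjusted p = 0.381) by limma. The slope difference was -0.03 ± 0.26 for Herc6 (adjusted p = 0.975) but 2.13 ± 0.46 for Gbp2 (adjusted p = 0.109), also by limma. Ifi27l2a differed by 2.16 ± 0.47 and Cxcl10, a chemokine, by 1.31 ± 0.34, yet neither passed the threshold (adjusted p = 0.0543 and 0.0865). These genes were chosen after their values were seen.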
